A study of Homo sapiens with 10 samples.

Results

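TTN encodes titin, the giant elastic protein that spans the sarcomere of striated muscle from the Z-disc to the M-band. The gene is built from a very large number of exons, most of which encode immunoglobulin-like or fibronectin-like domains, and a run of short exons in its middle encodes the extensible PEVK segment. In chromatin, about the same length of DNA as an average exon is wrapped around each histone octamer, and coding exons, which are usually richer in G and C than introns, are known for carrying more nucleosomes per base than the introns around them. Here the nucleosome positions on TTN were described in undifferentiated stem cells, in exons against introns, by exon length, across the repeated middle exons, in the longest exon and by their spacing. The members were all positions with a midpoint in the gene body of TTN or within 10 kb of either end, 1532 of the 12921589 in the list and of the 1097900 on chromosome 2.

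The cells were human induced pluripotent stem cells (hiPSCs) of the established line PB010.5, a single line with a fluorescent cell cycle reporter in the EEF2 locus, which all samples share. Unfixed, permeabilized cells were treated for 5 min with 1 of 5 amounts of micrococcal nuclease (MNase; 10 U, 6 U, 3 U, 1 U and 0.5 U), an enzyme that cuts linker DNA, and yeast nucleosomal DNA was added to each library as a spike-in. There was 1 library for each amount. Every library was read in a 150-bp run and again in a 50-bp run labelled as low depth, which makes 10 samples from 5 digestions. The values used were 1 list of positions pooled over libraries, each an interval of 140 bp with 1 score, a height that is never negative and rises in steps of 1.23, with a median of 14.8 in the whole list and on chromosome 2. The list has no value per library or concentration and no read totals, so the depth behind a score is unknown, no effect of the concentration could be described and no test between groups was possible. Midpoints of the locus lie mostly on a grid of 10 bp (94.3% of the 1532), which limits the precision of a location. Intervals in brackets are exact 95% intervals (Poisson for counts, binomial for shares, order statistics for medians) and cover counting error only. They treat positions as independent, although neighbouring midpoints are at least 100 bp apart, which was not allowed for. Expression was not measured in these libraries.

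In GENCODE release 44 on GRCh38, TTN (ENSG00000155657.29) lies on the minus strand of chromosome 2 at chr2:178525989-178830802, 304814 bp. Its 16 annotated transcripts merge into 368 exons with a median length of 261 bp and 367 introns with a median of 153 bp. Exons make up 39.0% of the gene body, and with 118976 bp TTN had more exon sequence than any of the 383 other protein-coding genes of chromosome 2 compared here. The canonical transcript (ENST00000589042.5) has 363 exons and starts at 178807423. A further 23379 bp upstream belong to TTN only through a transcript with an earlier start, and its 5′ end overlaps CCDC141. The antisense lncRNA gene TTN-AS1 overlaps 253975 bp of the gene body on the other strand, and nucleosome positions carry no strand.

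A few sequences carry what follows, all from the GRCh38 reference and written 5′ to 3′ on the minus strand, which is the sense strand of TTN. The first set is a PEVK exon in its tandem copies, shown because positions were nearly missing where copies are identical. Capitals mark the bases at which the 3 copies of this 81-bp exon differ (chr2:178662338-178662418, chr2:178658077-178658157 and chr2:178653817-178653897).
exon 177: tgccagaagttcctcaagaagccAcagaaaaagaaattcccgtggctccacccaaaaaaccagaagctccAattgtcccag
exon 186: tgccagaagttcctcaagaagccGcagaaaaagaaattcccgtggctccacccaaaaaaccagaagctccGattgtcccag
exon 195: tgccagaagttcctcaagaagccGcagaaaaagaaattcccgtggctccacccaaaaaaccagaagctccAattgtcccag
A neighbouring 90-bp exon has the same sequence in exons 174, 183 and 192 (chr2:178662966-178663055, chr2:178658705-178658794 and chr2:178654445-178654534), without 1 differing base.
exons 174, 183 and 192: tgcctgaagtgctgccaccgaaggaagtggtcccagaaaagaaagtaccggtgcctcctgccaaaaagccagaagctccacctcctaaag

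The second set is the 140 bp under 3 coding positions, shown because they hold the highest score in the gene body (chr2:178800542-178800681, in exon 4, score 48.1) and a highest and the lowest score of the longest exon (chr2:178574822-178574961, score 32.1, and chr2:178573642-178573781, score 3.70). Capitals mark runs of at least 4 A in a row or at least 4 T in a row, and mixed runs of A and T were not counted. The highest-scoring interval of the gene body held 0 such runs and had 52.9% GC. The high and the low interval of the longest exon both had 45.0% GC and held 1 and 2 runs.
exon 4, highest score: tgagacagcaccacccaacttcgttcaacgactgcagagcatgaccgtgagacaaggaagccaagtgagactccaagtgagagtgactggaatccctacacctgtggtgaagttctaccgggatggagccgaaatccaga
longest exon, high score: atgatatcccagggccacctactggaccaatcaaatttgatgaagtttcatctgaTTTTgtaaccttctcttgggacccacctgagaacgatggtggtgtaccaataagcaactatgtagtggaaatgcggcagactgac
longest exon, low score: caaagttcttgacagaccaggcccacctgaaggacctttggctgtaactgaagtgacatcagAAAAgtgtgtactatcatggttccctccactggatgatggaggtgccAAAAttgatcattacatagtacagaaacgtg

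The third is the 250 bp before the canonical start (chr2:178807424-178807673, from the RefSeq promoter table, GRCh38.p14), shown because a gap between neighbouring positions spans this start. Capitals mark TATAA, the core of a TATA box, which was searched on both strands and found 1 time, 28 bases before the start. The same search matched 18.9% of the 35116 promoters of the table over these 250 bp.
promoter of TTN: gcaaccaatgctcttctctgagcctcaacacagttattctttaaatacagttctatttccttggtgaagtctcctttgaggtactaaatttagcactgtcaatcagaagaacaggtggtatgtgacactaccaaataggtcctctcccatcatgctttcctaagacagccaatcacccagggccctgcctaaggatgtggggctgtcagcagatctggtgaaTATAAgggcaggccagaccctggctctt

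Positions covered TTN from end to end at close to the density of chromosome 2, except in the repeat. The gene body with its flanks held 4.72 positions per kb. In 324 windows of 1 kb over the locus there were 1528 midpoints, where windows of chromosome 2 with the same GC content (within 1 percentage point, 219468 windows) held 1435 on average, a ratio of 1.06 [1.01 to 1.12]. Chromosome 2 also has long stretches without any position, among them the centromere. Against windows outside the stretches of over 10 kb without a position the ratio was 1.03 [0.983 to 1.09], and against windows inside other protein-coding genes it was 1.03 [0.978 to 1.08]. The small excess over chromosome 2 was therefore within counting error of no difference against the last 2 backgrounds. Without the repeat the ratio was 1.10 [1.04 to 1.15], and 1.07 [1.01 to 1.12] with the empty stretches of chromosome 2 left out as well.

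**Figure D1:**
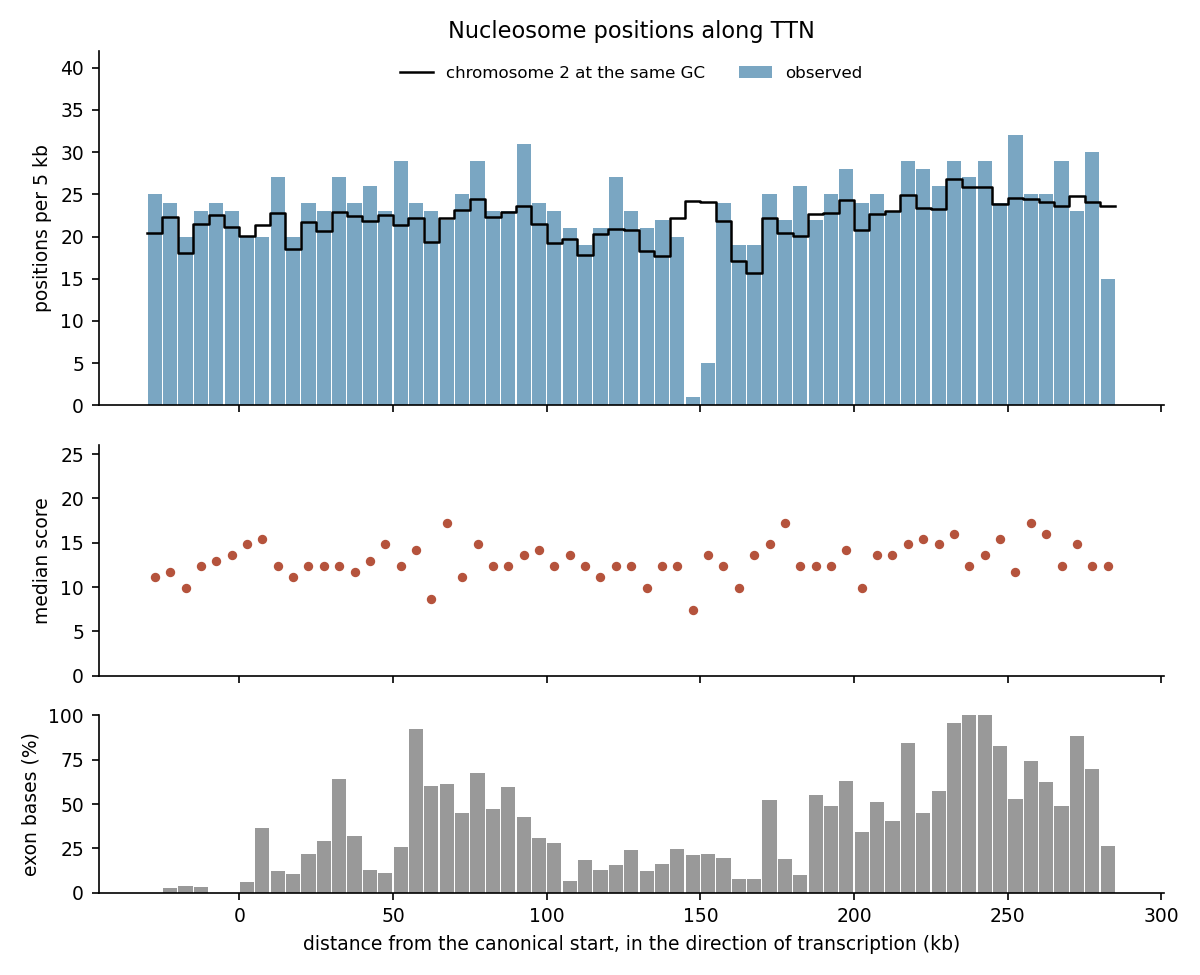
Nucleosome positions per 5 kb along TTN (top; bars, observed; line, expected from chromosome 2 at the same GC content over the length of 1 nucleosome), the median score of each bin (middle) and the share of exon bases in percent (bottom), by distance in kb from the canonical start in the direction of transcription. The 59 bins that do not touch the repeat held 15 to 32 positions each, and the 4 bins that touch it held from 1 to 24.

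In large parts of the gene, density varied little outside the repeat. When the gene body was cut into 10 equal parts in the direction of transcription, 9 of them held 1.06 to 1.15 times the number of positions that chromosome 2 holds at the same GC content (taken around each base over the length of DNA in 1 nucleosome), although the exon share ranged from 4.21% in the first part to 79.4% in the ninth. The exception was the sixth part, with 93 positions and a ratio of 0.714 [0.577 to 0.875], which contains the repeat. Without the repeat its ratio was 1.14 [0.912 to 1.41]. The median score of the 10 parts lay between 12.3 and 14.8, within 2 steps.

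Exons of TTN held more positions per base than its introns, and their positions scored higher, but at matched GC content both differences had the other sign, with overlapping intervals of exons and introns. In exons there were 639 positions, 5.37 per kb [4.96 to 5.80], and in introns 802, 4.32 per kb [4.02 to 4.62]. The log2 ratio was 0.32 [0.16 to 0.47], which lies above 0 by more than counting error. It was higher than in 361 of the 383 other protein-coding genes of chromosome 2 with at least 5 kb of exon and 50 kb of intron, whose median was 0.09. Exons were denser than introns in 68.5% of the 384 genes with TTN included, so the direction in TTN is the common one.

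The median score was 14.8 [14.8 to 14.8] in exons and 12.3 [12.3 to 12.3] in introns of TTN, a difference of 2.47 or 2 steps. Exons had the higher median score in 45.8% of the 384 genes. The other genes had a median difference of 0, and 63 of the 383 had a larger difference than TTN. The intron median of TTN was among the lowest, with 5 of the 383 genes below it and 92 at the same value, while its exon median equalled the median of the other genes.

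The exons of TTN had 43.6% GC and the introns 34.0%. Only 1 of the 383 other genes had introns poorer in GC, and 11 had a wider gap between exons and introns than the 9.58 percentage points of TTN. Set against all of chromosome 2 at the same GC content, exons of TTN held 1.06 times the expected positions [0.977 to 1.14]. The median of the other genes was 1.10 in exons. Introns of TTN held 1.09 times [1.01 to 1.17], beside a median of 1.06 in the other genes. The log2 ratio between exons and introns of TTN was -0.04, the other side of 0, and 297 of the 383 other genes were higher. The score behaved alike. Ranked among the positions of chromosome 2 with the same number of G and C bases, exon positions of TTN had a median percentile of 46.0 [43.5 to 53.0] and intron positions one of 53.0 [48.6 to 57.5], 7.04 points lower in exons with intervals that overlap. Of the 383 other genes, 310 had a higher difference, and their quartiles were -5.53 and 4.88 points. Among the 31 genes whose GC gap lay within 2 percentage points of that of TTN, the median log2 ratio was 0.16, with quartiles of 0.06 and 0.27, and the median score difference was 2.47, the same as in TTN. At matched GC content the same 31 genes had a median log2 ratio of 0.06, beside -0.04 in TTN, and a median difference of -2.37 percentile points, beside -7.04 in TTN.

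**Figure D2:**
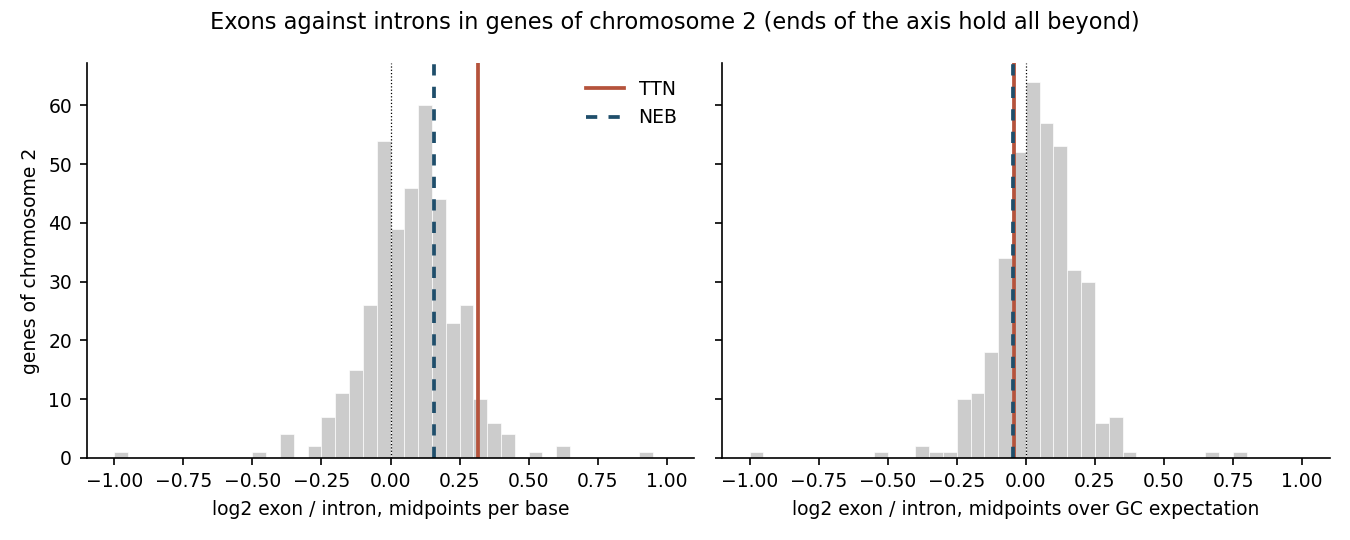
Log2 ratio of exon to intron density of nucleosome midpoints in 384 protein-coding genes of chromosome 2, per base (left) and after division by the number expected at the same GC content (right), as numbers of genes; lines mark TTN (solid) and NEB (dashed), and the outermost bars hold all genes beyond the ends of the axis. Per base, TTN at 0.32 lies to the right of 361 of 383 genes, and at matched GC content it lies at -0.04.

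The other choices of exon kept the direction per base. With the exons of the canonical transcript the log2 ratio was 0.31, with coding sequence 0.32, with intervals of which at least 0.40 lay in an exon 0.32, and without the repeat 0.29. With the positions at or above the median score of the list, 646 in the gene body, the log2 ratio was 0.87 [0.64 to 1.10], but these were selected by score, which was itself higher in exons.

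Introns of every length were populated. Outside the repeat, 100 positions lay in the 170 introns under 200 bp, 5.18 per kb and 1.21 times the number at the same GC content [0.988 to 1.48]. The 45 introns of at least 1000 bp held 446 positions, 4.51 per kb and 1.13 times [1.03 to 1.24]. The interval of the shortest introns holds the value of the longest. Introns of the 383 other genes, taken over all lengths, had a median of 1.06 times, so ratios slightly above 1 were common.

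By exon length, TTN followed the other genes of chromosome 2. Outside the repeat, 258 of its 334 exons, or 77.2% [72.4 to 81.6], held at least 1 midpoint, beside 71.0% of 18210 merged exons of the other protein-coding genes, but TTN has an unusual mix of lengths, so classes were compared. Of the exons under 100 bp, 27 of 82 held a midpoint (32.9% [22.9 to 44.2], other genes 34.8%). Of those of 100 bp to under 200 bp it was 37 of 53 (69.8% [55.7 to 81.7], other genes 71.6%). In the class with the most exons of TTN, 200 bp to under 300 bp, it was 119 of 124 (96.0% [90.8 to 98.7], other genes 92.8%). The values of the other genes lay inside each of these intervals.

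All 75 exons of 300 bp or more held a midpoint, so none was left to name as empty. The 50 exons of 300 bp to under 400 bp gave a share of 100% [92.9 to 100] beside 94.9% in other genes. Most of the exons of 200 bp to under 300 bp held several midpoints, 65 of 124, while 54 held a single one. In the class above, 37 of 50 held several and the most in 1 exon was 3.

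Density over GC expectation did not depend on exon length beyond counting error. It was 0.910 [0.599 to 1.32] under 100 bp, 1.11 [0.799 to 1.50] from 100 bp, 1.07 [0.920 to 1.23] from 200 bp, 1.11 [0.897 to 1.37] from 300 bp, 1.15 [0.845 to 1.52] from 400 bp and 1.08 [0.946 to 1.22] from 1000 bp upwards. Each interval includes 1 and the value of the other genes in that class, which ranged from 1.01 to 1.07. The median score was 12.3 in the shortest class and 14.8 in the other 5, whereas in the other genes it reached 17.3 in the 3 classes from 200 bp to under 1000 bp, whose exons had 49.1 to 50.7% GC against 42.7 to 46.0% in TTN.

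**Figure D3:**
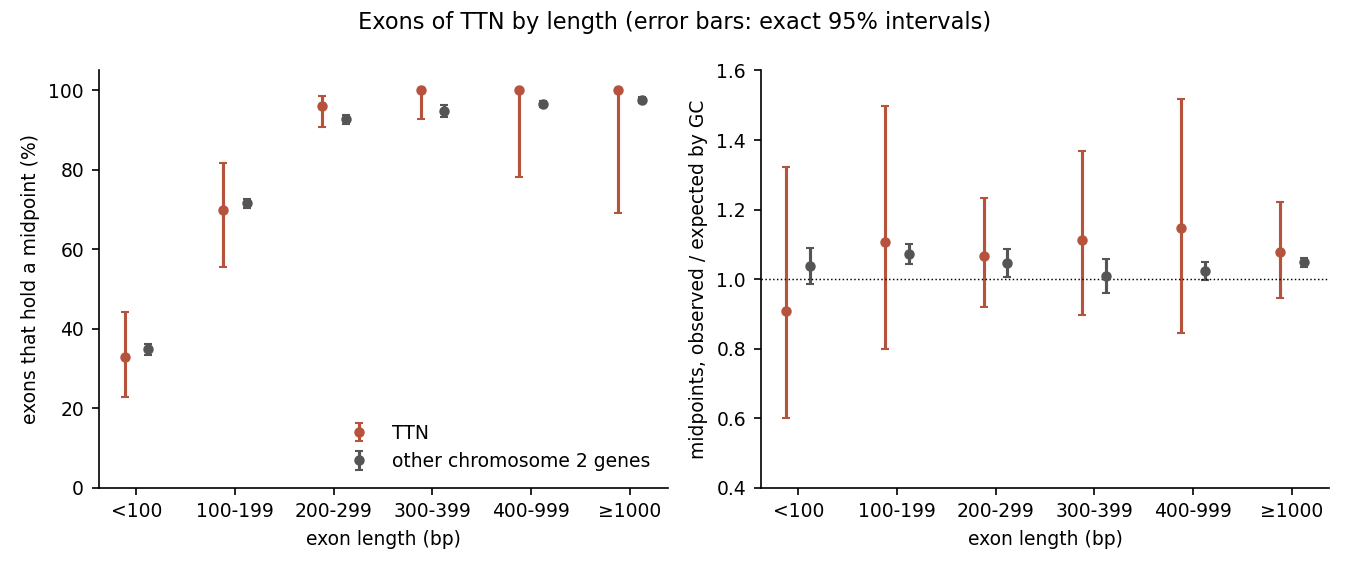
Share of exons that hold at least 1 nucleosome midpoint, in percent (left), and midpoints over the number expected at the same GC content (right), by exon length in bp, for TTN outside its repeat and for the other protein-coding genes of chromosome 2; bars are exact 95% intervals. In all 6 classes the shares and the density ratios of the other genes lie within the intervals of TTN.

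Taken over the 60 bp on each side of the centre of mid-length exons, the density of TTN lay near that of other genes, but finer bins differed. In the 174 exons of 200 bp to under 400 bp outside the repeat, 127 midpoints lay within 60 bp of the exon centre, 6.08 per kb and 1.16 times the GC expectation [0.964 to 1.38], and the 2982 such exons of other genes gave 1.10 [1.05 to 1.15]. Within that window, the bin from -20 to under 0 bp of the centre held 7 midpoints in TTN, 0.382 times the expectation, where other genes gave 1.18. The bin from 0 bp gave 1.15 beside 1.17, and that from 40 to under 60 bp 1.63 beside 1.02. These bins were picked after their values were seen, and their differences were not tested. The 100 bp before these exons, which reach into a neighbouring exon where the intron is shorter, held 4.66 midpoints per kb, 1.09 times [0.869 to 1.36], where other genes gave 0.956. The nearest midpoint to the exon centre lay 44 bp away at the median in exons of 200 bp to under 300 bp and 48.5 bp in those of 300 bp to under 400 bp, beside 40.0 and 47.0 bp in other genes. Neighbouring midpoints of the list are at least 100 bp apart, so that short exons cannot hold more than 1 or 2.

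The 5 exons with the highest-scoring positions were mostly at the start of the gene. Exon 4 led with 48.1 (99.9% of the positions of chromosome 2 scored lower), followed by exon 2 with 41.9 (99.6%) and exon 1 with 37.0 (98.9%). Exon 97 in the middle of the gene reached 35.8, and exon 353 near its end 33.3. Of the 10 highest positions of the gene body, 5 lay within 10 kb after the canonical start, 2 of them in introns with scores of 46.9 and 44.4.

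This cluster at the start was seen only after the scores were known. In the first 10 kb after the canonical start 5 of 40 positions scored 30 or more, 12.5% [4.19 to 26.8], in the next 10 kb 2 of 47, and in the whole gene body outside the first 10 kb 16 of 1401, 1.14% [0.654 to 1.85], where chromosome 2 has 3.92%. The median score of the first 10 kb was 14.8 [13.6 to 19.7], beside 12.3 in the rest of the gene body. Its number of positions did not stand out, at 0.966 times the GC expectation [0.690 to 1.31].

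At the canonical start, a position with a score of 37.0 had its midpoint 72 bp into exon 1 (chr2:178807282-178807421), and 99.1% of the positions of the same GC content scored lower. The next position upstream had its midpoint 168 bp before the start and a score of 18.5 (chr2:178807522-178807661). The midpoints were 240 bp apart, and the start itself and the TATAA shown above lay between the 2 intervals. This distance equals the upper quartile of neighbour distances in the gene body and on chromosome 2, so it is not an unusual one. At the earlier start at 178830802, positions had their midpoints 11 bp inside and 169 bp before it, with scores of 16.0 and 11.1, and the interval of the inner one ran across the start.

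At the 3′ end, the last exon (exon 363, 1319 bp, 37.4% GC) held 5 positions, 3.79 per kb, with a median score of 12.3. Just beyond the gene, 1270 bp separated neighbouring midpoints, the longest distance of the locus outside the repeat. The flank after the gene held 42 positions in 10 kb, 0.868 times the GC expectation [0.626 to 1.17], and the flank before it 49, 1.10 times [0.817 to 1.46].

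The repeated middle exons were nearly empty. Runs of 50 bases found at 2 or more places of the gene formed a block at chr2:178652091-178663650, 11560 bp or 3.79% of the gene body, most often at offsets of 4260 and 4261 bp, which is a tandem triplication. It overlaps 34 short exons of the canonical transcript (exons 171 to 204), each 81 to 90 bp long, and 20 of them have an identical copy among the others. Only 8 midpoints lay in the block, 0.692 per kb [0.299 to 1.36], where the same GC content gives 55.8, a ratio of 0.143 [0.0619 to 0.283]. The unique remainder of the gene body held 4.89 per kb, 1.11 times [1.06 to 1.17]. Within the block, exons held 2 midpoints, 0.140 times the expectation [0.0169 to 0.504], and introns 6, 0.145 times [0.0531 to 0.315], so both were low alike.

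The 8 positions lay only at placements whose 140 bp do not recur in the locus. Placements that recur had midpoints from 139 to 10229 bp from the 5′ end of the block. Outside this range lay 6 of the 8, including the 1 nearest the 5′ end. Of the 11421 intervals of 140 bp that can be placed in the block, 7782 (68.1%) occur with the same sequence elsewhere in the locus, and none of them was a position of the list, which allows a density of up to 0.386 per kb (3 counts). The other 3639 intervals differ from every other place of the locus by at least 1 base, and they held all 8 positions, 2.20 per kb [0.949 to 4.33], below the unique remainder of the gene. Their scores ran from 7.40 to 21.0 with a median of 13.0, near that of the gene. Of the 8, 6 lay towards the 3′ end of the block, 9469 to 11449 bp from its 5′ end. In this stretch exons 200, 201 and 202, among others, have no identical copy. A further 1 lay in an intron 2909 bp from the 5′ end, and 1 lay 99 bp from that end.

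Consecutive midpoints in the block were up to 6560 bp apart, the longest distance in the locus, and the next was 2810 bp. Positions resumed at once outside it, with 20 in the 4000 bp before and 19 in the 4000 bp after. Where reads map equally well to several places, they are often removed or placed at random, and the authors' filter for such reads is not given in the sources used here. The part of read mapping in the low number was not tested, and the copies could not be compared with each other, since identical copies held no position.

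NEB, which encodes nebulin, the ruler of the thin filament, has a triplicated block of its own and showed the same. In its block of 31663 bp there were 9 positions, 0.0624 times the GC expectation [0.0285 to 0.118]. Of the 25303 placements of 140 bp that recur within NEB, none was a position of the list, which allows up to 0.119 per kb (3 counts), and the 6221 that differ held all 9, 1.45 per kb [0.662 to 2.75].

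**Figure D4:**
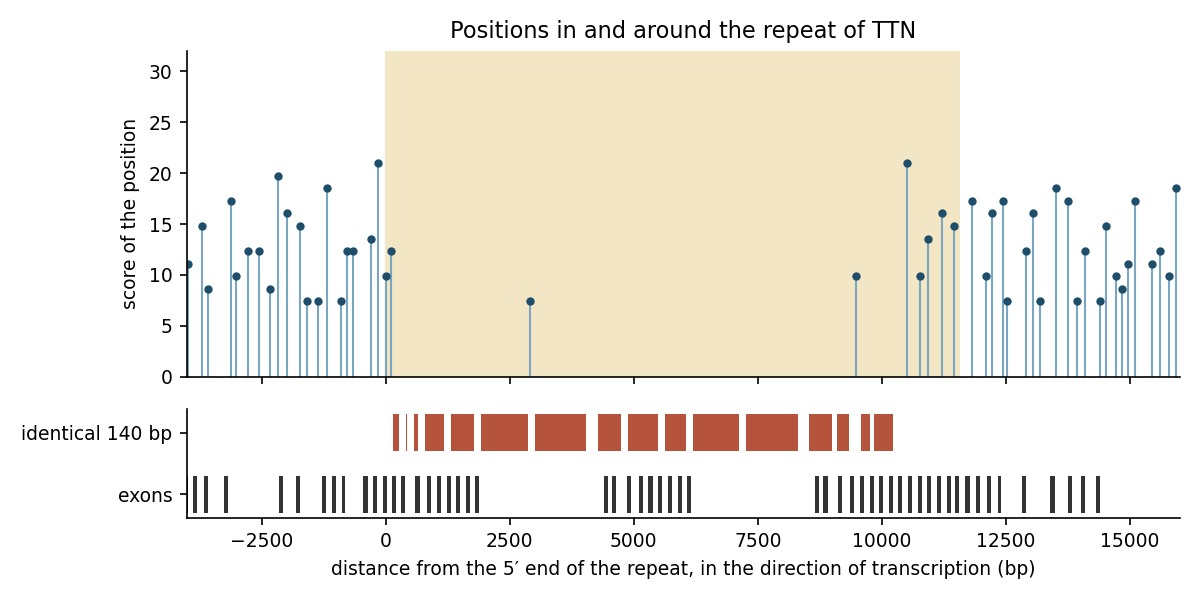
Scores of single nucleosome positions in and around the repeat of TTN (top; shaded, the repeat of 11560 bp) with the midpoints at which the 140 bp occur identically elsewhere in the locus and the exons (bottom), by distance in bp from the 5′ end of the repeat in the direction of transcription. Positions follow each other closely on both sides, and the 8 inside the repeat all lie outside the red blocks, 6 of them beyond the ends of the outermost blocks.

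The longest exon held similar numbers of positions along its length. Exon 326 (chr2:178559311-178576416, 17106 bp, 42.8% GC) is a coding exon for the A-band part of titin, which binds the thick filament. It held 98 positions, 5.73 per kb [4.65 to 6.98] and 1.10 times the GC expectation [0.894 to 1.34]. In 17 windows of 1 kb it held 97 midpoints where windows of the same GC content held 85.7, a ratio of 1.13 [0.918 to 1.38]. Cut into 6 equal parts, it held 15 to 17 positions in each. Midpoints of the list are at least 100 bp apart, which in itself limits how far such counts can vary. The spread of such counts in other stretches was not measured.

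Scores of single positions in the exon ran from 3.70 to 32.1, with quartiles of 11.1 and 18.5 and a median of 14.8 [12.3 to 16.0], which was at the percentile 44.9 [38.2 to 57.0] of positions of the same GC content. The 2 highest were both 32.1, at 1525 and 8295 bp from the 5′ end of the exon, and the lowest lay at 2705 bp, so that a high and the low interval printed above are little more than 1 kb apart. Medians of the 6 parts were 12.3 to 16.0, with overlapping intervals.

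**Figure D5:**
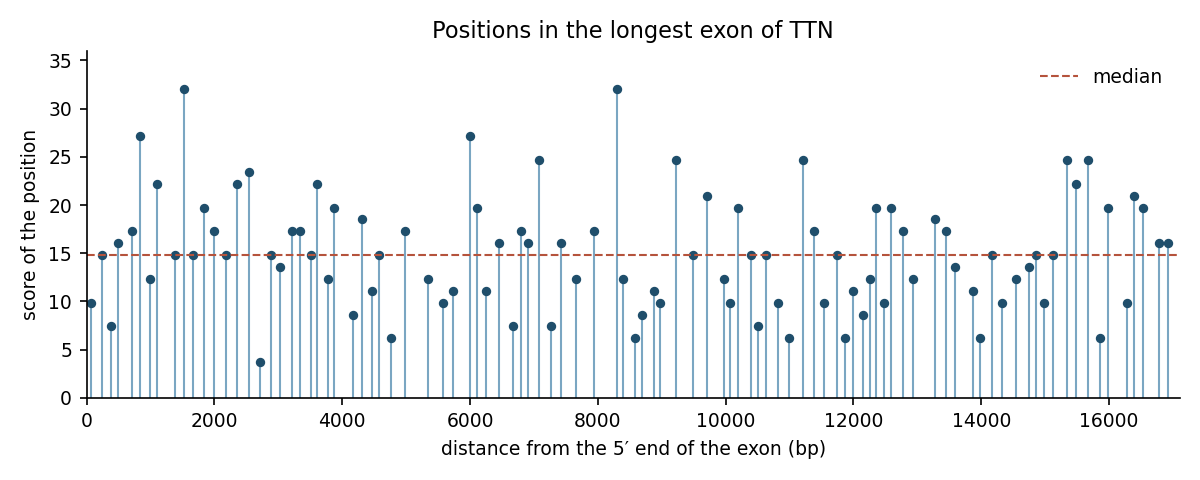
Scores of the 98 nucleosome positions in the longest exon of TTN, by distance of the midpoint in bp from the 5′ end of the exon; the dashed line is the median of 14.8. Positions follow each other without a gap above 370 bp, and scores of 3.70 to 32.1 alternate along the exon.

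The other exons of at least 1000 bp ranged in density from 3.79 positions per kb in exon 363 to 6.07 in exon 304. Exon 358 (5609 bp) held 31 positions, 5.53 per kb, with a median score of 14.8. Exon 304 (2967 bp) held 18, 6.07 per kb, and exon 48 (2781 bp) 15, 5.39 per kb. The longest exon outside the canonical transcript, the 7635-bp last exon of a short isoform (chr2:178744405-178752039), had less GC, 37.0%, and held 37 positions, 4.85 per kb, with a median score of 12.3.

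Neighbouring midpoints in TTN were 180 bp apart at the median [170 to 185], with quartiles of 139 and 240 bp over 1440 distances, beside 185 bp in chromosome 2 weighted to the same GC content. Distances that began in an exon, in the direction of transcription, had a median of 170 bp [160 to 170], and those that began in an intron 190 bp [180 to 200], with intervals that do not overlap. Matched for GC content in 1 kb, chromosome 2 gave 180 and 190 bp for these sets. Distances over 300 bp were 8.93% of those from exons and 16.0% of those from introns, beside 12.9% and 18.6% at matched GC content.

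In the longest exon the median distance was 160 bp [150 to 180], beside 175 bp at matched GC content, and 3 of 97 distances exceeded 300 bp. Medians of the 10 parts of the gene ran from 160 bp in the last to 205 bp in the first, whose intervals of 160 to 180 and 180 to 215 meet at their ends. When both midpoints had to lie in the same exon, the median was 155 bp [150 to 160], but most exons are too short to hold distant pairs. In the same intron it was 180 bp [170 to 190].

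All pairs of midpoints, not only neighbours, showed a second rise at longer distances. Relative to pairs 600 to 1000 bp apart, those 300 to under 340 bp apart occurred 0.870 times as often [0.764 to 0.986] and those 340 to under 380 bp apart 1.14 times [1.02 to 1.27]. Chromosome 2 gave 0.945 and 1.07 for the same distances, inside both intervals. At 140 to under 180 bp TTN gave 1.219 [1.093 to 1.355], and chromosome 2 gave 1.092, just below that interval. In the other distance classes from 100 bp to under 500 bp, chromosome 2 lay inside the interval of TTN. The difference at 140 to under 180 bp was not tested.

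Genes of a sarcomere list were split in direction much as chromosome 2 genes were. Of 21 genes for proteins of the sarcomere or associated with it, 14 had denser exons than introns and 7 sparser ones. This share is near the 68.5% of chromosome 2 genes, and 0 of the 21 had an interval clear of 0. Their median log2 ratio was 0.12, near the median of chromosome 2 genes, and it ran from -0.58 in ANKRD1 to 0.68 in DES, both short genes with few positions. NEB had 0.16 [-0.09 to 0.40]. The exon score was higher in 10 of the 21, lower in 6 and equal in 5. It was higher in 45.8% of the 384 chromosome 2 genes, a similar share. Most of these genes have far less exon sequence than TTN, which widens their intervals.

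Among 257 other genes of chromosome 2 of at least 100 kb, those most like TTN in position density, median score and both exon to intron differences were MAP2, which encodes a microtubule-associated protein of neurons, XIRP2, a muscle actin-binding protein, and PKP4, a plakophilin of cell junctions. Their distances over the 4 standardized measures were 0.592, 0.593 and 0.626, beside a median of 2.33. Their log2 exon to intron ratios were 0.24, 0.32 and 0.29, and each had a score difference of 2.47, which are alike by selection since both measures entered the distance. At matched GC content, which did not enter the distance, the log2 ratios became -0.01, 0.12 and 0.08, beside -0.04 in TTN. The differences in percentile points were -0.74, 9.58 and 2.67, beside -7.04 in TTN. These differences between genes were not tested.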

How the data were processed

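hiPSCs were digested with 5 MNase concentrations, 1 library each, and the authors pooled libraries into 1 list of positions. Per the study's methods, reads were trimmed (Trimmomatic 0.40), aligned to GRCh38, filtered for blacklisted regions and run through the nucMACC workflow. The runs pooled, the caller, the filter on mapping quality and the scaling of the score are not given in the sources used here. The deposited score is a signal, a height per 140-bp interval, used as deposited and unfiltered. The file has 0 columns of single samples.

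The midpoint was the interval start plus 70 bp. Exons were merged over the transcripts of GENCODE release 44 (the methods name release 48), and introns were the remainder of the gene body. GC content was matched in 1-kb windows (bins of 1 percentage point) or, for regions of any shape, per base over the length of 1 nucleosome, against chromosome 2 outside the TTN locus, its empty stretches included. Score percentiles used positions with the same number of G and C bases over that length. Of 396 genes with at least 5 kb of exon and 50 kb of intron, 12 with under 6 positions in either were left out. Repeats were runs of identical 50-mers, joined within 2000 bp. Exons of the repeat were grouped at 90% identity.

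Named were TTN, NEB, the 3 genes of at least 100 kb most like TTN, and within TTN the longest, first, last, repeated, 5 highest-scoring and any long empty exons. CCDC141, TTN-AS1, ANKRD1, DES and further long exons were named after their values were seen. A further gene of the sarcomere list, beyond the 21 counted, is not reported here. Members and lists were chosen with earlier results of these data known. With 1 pooled list there are no replicates and no test was made. Alternatives were other position sets, exon definitions, windows, GC bins and k-mers. Calculations and plots used matplotlib 3.10.9, pandas 2.3.3, SciPy 1.17.1 and NumPy 2.4.6 in Python 3.11.15, and the counting was tested on simulated positions.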

Additional observations from a re-analysis of the deposited data

How the results depend on the processing

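No library could be left out, since the list is pooled. No paired analysis was possible because no result comes from a test and no column carries a replicate number. Of 31 alternatives over 7 results, 24 fixed with the design and 7 chosen after seeing the data, 22 stayed within the counting interval of the reported value, 5 left it and 4 reversed. The density of exons against introns (log2 0.32) became 0.87 among the higher-scoring positions (scores from the list's median upwards) and 0.54 with positions weighted by score. It turned to -0.042 when exons and introns were each divided by chromosome 2 at the same GC content, and to -0.085 when the repeat was left out as well. The score difference of 2.47 became 1.23 among the higher-scoring positions and turned to -7.04 percentile points among positions of the same GC content (-6.95 without the repeat). The cause of the changes other than the match for GC content was not tested. The share of exons outside the repeat that hold a position, 77.2% by midpoint, was 83.8% when 0.40 of the interval had to lie in the exon. The median spacing of 180 bp became 340 bp with the higher-scoring positions, which are fewer by construction. Results for the repeat, the longest exon and the density of the locus stayed within their intervals. Unknown depth, a 10-bp grid of midpoints and 1 pooled list limit every value.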
